A study of Mus musculus with 11 samples.

Results

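The enzymes described here are encoded by 64 mouse genes whose symbols begin with Kdm, Kmt, Setd, Prdm, Hdac or Sirt followed by a digit, out of 22180 genes named by a probe set with a single symbol. They comprise 17 lysine demethylase (Kdm), 8 lysine methyltransferase (Kmt), 8 SET domain (Setd), 13 PR domain (Prdm), 11 histone deacetylase (Hdac) and 7 sirtuin (Sirt) genes. Each gene was represented by the probe set with the highest mean of all 11 arrays, and antisense genes were left out. The symbol rule takes no acetyltransferase, and it takes enzymes that also act on other proteins.

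Total RNA from 11 mouse cell samples had been hybridised to Affymetrix whole-transcript arrays, 1 array per sample. Embryonic fibroblasts carrying 1 copy of rtTA (Rosa-rtTA +/-), an activator that needs doxycycline, at passage 4, had been infected with viruses carrying Klf4, Oct4, Myc and Sox2 under a tetracycline operator promoter, and day 0 was the start of doxycycline, 1 day after infection. Cells were sorted in 2 rounds on CD49d or CD73 at day 6 and day 9, giving CD49d+ and CD73+ cells, which the labels call poised, and CD73- cells, called non-poised. Unsorted cells of both days are those that the labels call total. The controls were the uninfected rtTA fibroblasts (MEF, passage 4), a partially reprogrammed line named SC4 (passage 10) and V6.5 embryonic stem cells (ESC, passage 11). The 8 reprogramming samples thus share the activator, the 4 viruses and doxycycline, and no group has a second array.

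Lysine methylation marks are written on histone tails by SET domain enzymes such as most Kmt2, the Kmt5 and some Setd proteins. The Kdm enzymes, which are flavin-dependent (Kdm1a and Kdm1b) or belong to the jumonji class, take these marks off. Methylation of lysine residues is linked to active promoters, transcribed gene bodies or silent chromatin, depending on the residue. Hdac proteins and the NAD-dependent sirtuins remove acetyl groups, which goes with lower transcription where histones are the substrate. Several members work elsewhere: Hdac6 deacetylates tubulin in the cytoplasm, Sirt3, Sirt4 and Sirt5 are mitochondrial, and most Prdm proteins are zinc finger transcription factors. Removal of repressive methylation from stem cell genes is a known hurdle in the conversion of fibroblasts to pluripotent cells.

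Values are linear intensities with a floor of 100, which held 52.14% to 54.31% of the probe sets of an array. An intensity of 100 is an upper bound, and intensities of different genes are not compared because probe sets differ in their response. The sorting markers followed the labels: Nt5e, which encodes CD73, had 2704 to 3658 in poised cells against 331.9 and 292.4 in CD73- cells. Itga4, which encodes CD49d, had 1082 to 1859 against 152.7 and 169.6. Of 7 stem cell markers 7 were above the floor in ESC, 1 in SC4 and 0 in MEF. On the reprogramming arrays 0 were in poised cells or at day 6. At day 9 there was 1 in CD73- cells (Nanog, 167.1) and there were 2 in unsorted cells. The summed intensity of 11 fibroblast markers was 48658 in MEF, 2005.6 in SC4 and 6235.1 to 15356 on the reprogramming arrays. Differences of whole-population RNA cannot tell fewer cells of a type from less RNA per cell.

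Of the 64 members 53 were above the floor on all 11 arrays, 62 on at least 1 array and 58 on at least 1 reprogramming array. Kdm4d and Prdm13 lay at the floor on every array. Kdm5d, Prdm1, Prdm14 and Hdac9 lay at the floor on the 8 reprogramming arrays and were not tested, while Prdm6 and Prdm8 left it on 2 of these arrays each. The 15 other Kdm genes, the Kmt, Setd and Sirt genes and 10 of 11 Hdac genes were thus measurable in every sample, against 5 of 13 Prdm genes. Among the 53 members measured throughout, the highest of the 8 reprogramming arrays exceeded the lowest by a median of 1.32-fold, against 1.4-fold for the 10541 genes measured throughout. The Kmt genes had the widest median spread of the 6 families (1.88-fold) and the Prdm genes the narrowest (1.24-fold).

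**Figure D1:**
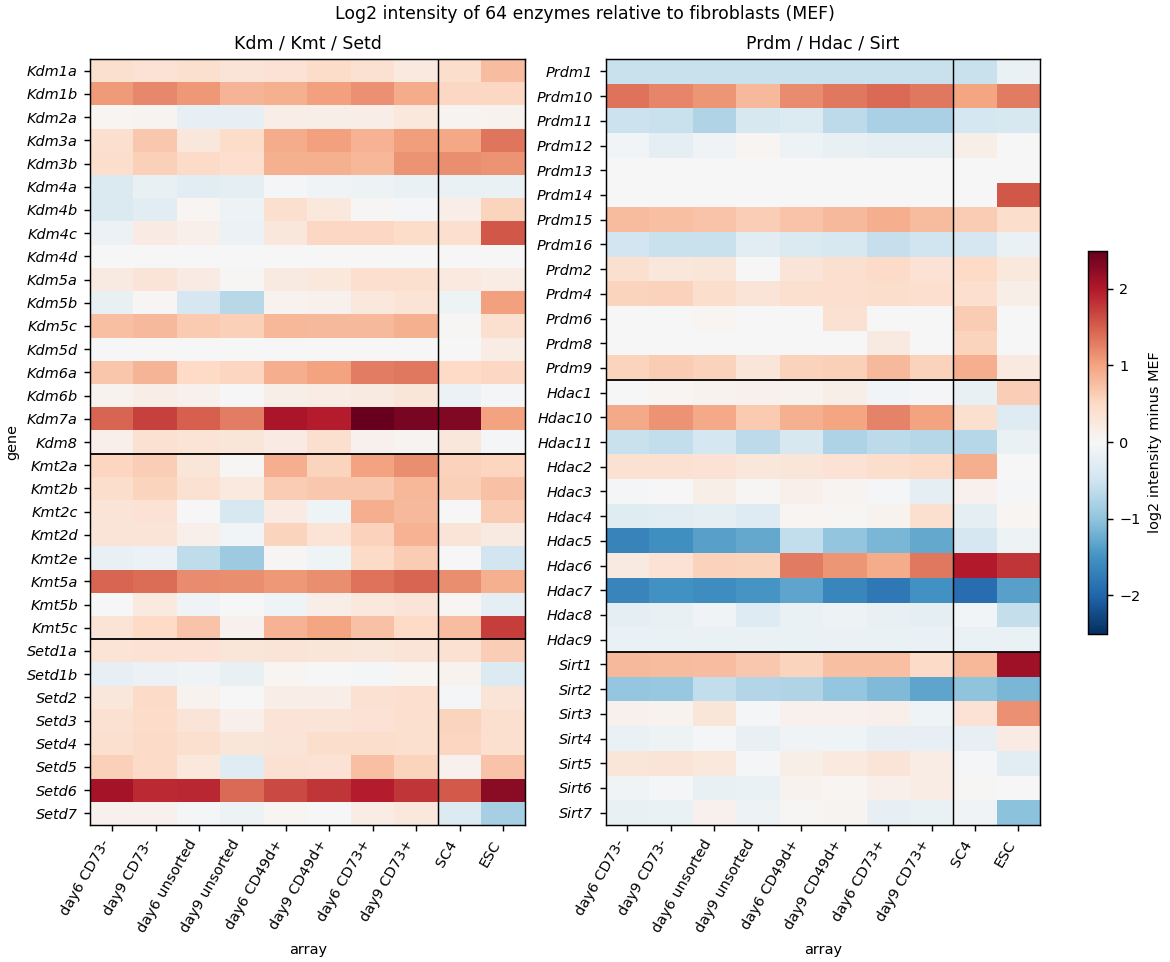
Log2 intensity of each of the 64 members minus its value in fibroblasts (MEF), with genes in rows by family and arrays in columns. Red is higher and blue lower than MEF; Kdm7a, Kmt5a and Setd6 are red and Hdac7 is blue on all 8 reprogramming arrays, and Prdm14 departs from MEF in ESC alone.

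Poised cells had more transcript of some demethylases and some class II deacetylases than CD73- cells. In the limma fit on the 8 arrays, with terms for population and day, the mean of CD49d+ and CD73+ exceeded CD73- for 8 of 58 tested members at an adjusted p under 0.05, and 0 were lower. Of all 13313 genes tested 12.0% passed, 7.16% higher and 4.85% lower, so the share of members that passed in either direction (13.8%) was near that of all genes. At an unadjusted p under 0.05 there were 16 members, against 30.5% of all genes. The 8 are the demethylases Kdm3a, Kdm3b, Kdm4b, Kdm6a and Kdm7a and the deacetylases Hdac4, Hdac5 and Hdac6. Hdac7 and Hdac10, also of class II, did not pass in the limma fit (0.03 log2 units, adjusted p = 0.943, and -0.01, adjusted p = 0.976). By family, 5 of 15 Kdm, 3 of 10 Hdac and 0 of 8 Kmt, 8 Setd, 10 Prdm and 7 Sirt genes passed. The median log2 difference was 0.17 for Kdm, 0.24 for Kmt and -0.0102 for all genes tested. The spread behind these tests is how far the differences among the 4 populations, unsorted cells included, disagreed between day 6 and day 9. A shift shared by all populations between the days is taken up by the day term. The labels do not say whether the days were separate cultures.

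Kdm3a removes the lower methylation states of lysine 9 of histone H3, a mark of silent chromatin. At day 6 and day 9, in that order here and in what follows, its intensity was 988 and 1062 in CD49d+, 950 and 1075 in CD73+ and 692 and 833 in CD73- cells. It was 636 and 714 in unsorted cells, 522 in MEF, 1017 in SC4 and 1316 in ESC. The 4 poised arrays lay above both CD73- and both unsorted arrays, near SC4. The difference from CD73- cells was 0.42 ± 0.0566 log2 units (SE; 1.34-fold, adjusted p = 0.0168), with 0.49 at day 6 and 0.36 at day 9. With no day term in the fit it did not pass (adjusted p = 0.0624). Its relative Kdm3b had 1159 and 1168 in CD49d+, 1117 and 1372 in CD73+, 856 and 947 in CD73- and 874 and 844 in unsorted cells, with 628 in MEF, 1399 in SC4 and 1359 in ESC. Poised cells were again above the other reprogramming cells without overlap (0.41 ± 0.0859, adjusted p = 0.043, or 0.052 with no day term).

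Kdm4b, which acts on trimethylated lysine 9, had 377 and 341 in the CD49d+ and 292 and 280 in the CD73+ population. CD73- cells had 222 and 235, unsorted cells 294 and 260, MEF 285, SC4 319 and ESC 421. CD49d+ cells were above and CD73- cells below MEF, and CD73+ cells overlapped with unsorted cells. The difference of poised from CD73- cells was 0.49 ± 0.0711 log2 units (adjusted p = 0.0205).

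Kdm6a (Utx) removes methyl groups from lysine 27 of histone H3, the Polycomb mark. It had 2479 and 2549 in CD73+ cells, 1932 and 2065 in CD49d+ cells, 1653 and 1844 in CD73- cells and 1440 and 1488 in unsorted cells, while MEF, SC4 and ESC had 1023, 1441 and 1461. The order of the 4 populations was the same at both days. CD73+, CD49d+ and CD73- cells all lay above the 3 controls, as did unsorted cells at day 9. Poised cells exceeded CD73- cells by 0.36 ± 0.0534 log2 units (adjusted p = 0.0211). Kdm6a lies on the X chromosome. Uty, its relative on the Y chromosome, was at the floor in MEF and on the 8 reprogramming arrays. Its intensity was 671.8 in SC4 and 439.2 in ESC. The part of sex in the comparisons with SC4 and ESC was not tested.

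Kdm7a, a jumonji enzyme for both the lysine 9 and lysine 27 marks, had the widest range of the 64 members, 5.62-fold over the 11 arrays. Its intensity was 1403 and 1288 in CD73+, 1026 and 968 in CD49d+, 688 and 814 in CD73- and 702 and 608 in unsorted cells. MEF had 250, SC4 1237 and ESC 502, so that every reprogramming array lay above both MEF and ESC, and the CD73+ arrays were the 2 above SC4. The difference of poised from CD73- cells was 0.63 ± 0.104 log2 units (1.55-fold, adjusted p = 0.0262).

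The class II deacetylases Hdac4 and Hdac5 shuttle between nucleus and cytoplasm and repress transcription with partner factors. Hdac4 had 806 and 797 in CD49d+, 826 and 1023 in CD73+, 634 and 642 in CD73- and 655 and 619 in unsorted cells, with 778, 670 and 803 in MEF, SC4 and ESC. Poised cells stood near or above MEF and ESC, and CD73- and unsorted cells below all 3 controls (poised minus CD73- 0.43 ± 0.0937, adjusted p = 0.0489). Hdac5 had 596 and 462 in CD49d+, 418 and 378 in CD73+, 288 and 317 in CD73- and 360 and 376 in unsorted cells, against 918 in MEF, 682 in SC4 and 837 in ESC. All 8 reprogramming arrays were below the 3 controls, with CD73- cells lowest. The difference was 0.59 ± 0.116 (1.51-fold, adjusted p = 0.0373).

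Hdac6, the tubulin deacetylase, showed the largest difference of the 8. It had 1046 and 910 in CD49d+ and 809 and 1058 in CD73+ cells, 493 and 544 in CD73- cells and 630 and 619 in unsorted cells. MEF had 423, SC4 1666 and ESC 1465. All 8 reprogramming arrays lay between the fibroblast and stem cell levels. Hdac6, like Kdm6a, lies on the X chromosome, and the part of sex in its comparisons with SC4 and ESC was not tested. The poised arrays were above every CD73- and unsorted array, by 0.88 ± 0.127 log2 units over CD73- cells (1.83-fold, adjusted p = 0.0199).

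**Figure D2:**
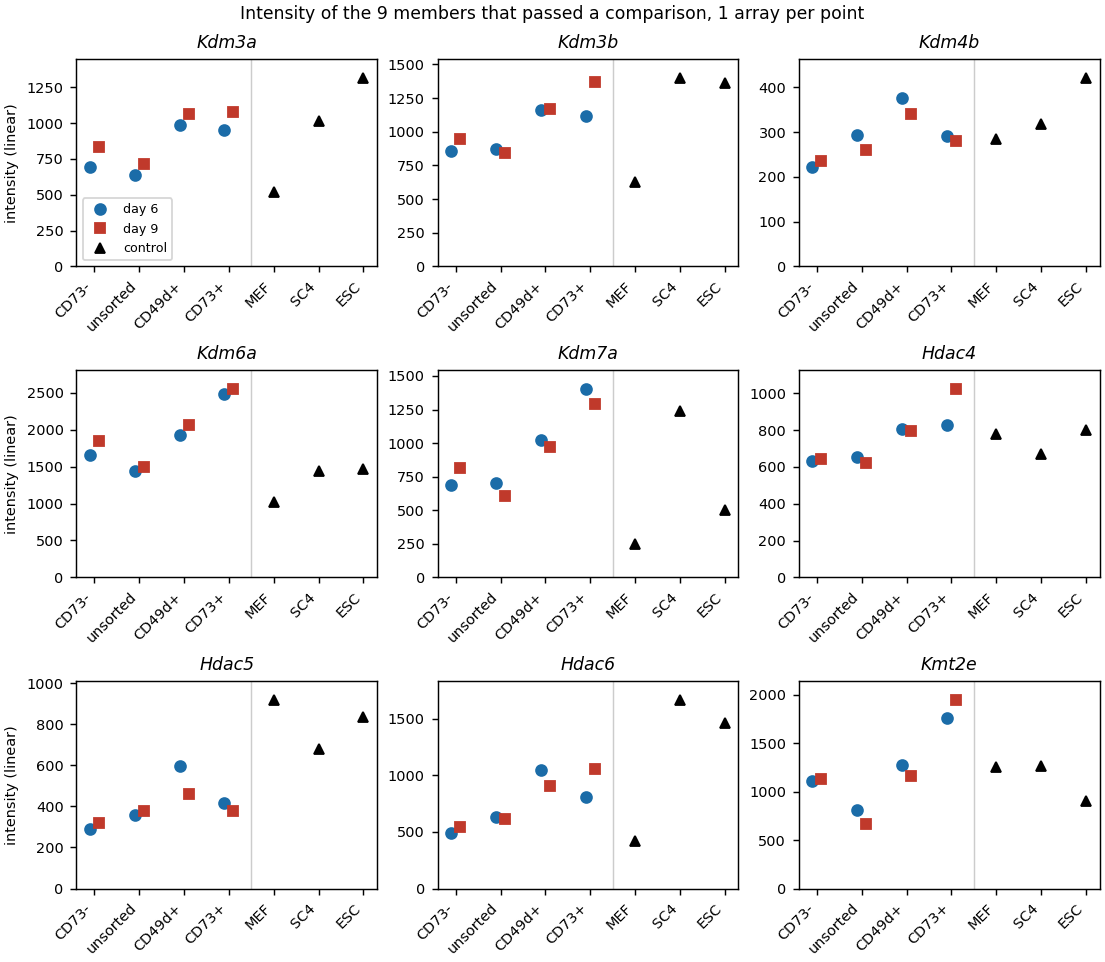
Linear intensity of the 9 members that passed a comparison, in the 4 reprogramming populations at day 6 (circles) and day 9 (squares) and in the 3 controls (triangles), 1 array per point. In each panel the CD49d+ and CD73+ points lie above the CD73- points; for Kmt2e the CD49d+ points at 1275 and 1161 are close to the CD73- points at 1108 and 1126.

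These calls rest on few arrays. The count of 8 fell to 0 when either CD73- array, either unsorted array or the CD73+ array of day 9 was left out. Those 5 fits called 1 to 570 of all genes, from 1599, so the calls of all genes dropped too. The count of members also fell without the CD73+ array of day 6 or either CD49d+ array. The differences of the 8 kept their sign in all 16 alternatives. That says little, because for each of the 8 all 4 poised arrays lay above both CD73- arrays. Several alternatives also leave the difference itself unchanged. Counting arrays with no test, 18 of 58 members had all 4 poised arrays above both CD73- arrays (14.5% of all genes tested) and 3 had all 4 below (18.4%). The 18 include 9 of 15 Kdm genes, 4 of 8 Kmt genes and 3 of 10 Hdac genes.

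The RefSeq windows from 250 bases before to 50 bases after the transcript start are shown for 5 of the 6 members that passed in at least 2 of the 3 comparisons with CD73- cells. Capitals mark matches on either strand. The motifs searched were the GC box, spelled GGGCGG, and the box named after its letters CCAAT. The E-box was spelled CACGTG. The core of the hypoxia element, ACGTG, lies inside every E-box, and neighbouring matches may run together or overlap. They are from build GRCm38.p6, 5′ to 3′ on the strand of the gene: Kdm3a at chr6:71632868-71633167 (minus strand, the first of 3 windows of this gene), Hdac6 at chrX:7947840-7948139 (minus), Kdm6a at chrX:18162325-18162624 (plus), Kdm7a at chr6:39206724-39207023 (minus) and Hdac5 at chr11:102230123-102230422 (minus).
Kdm3a: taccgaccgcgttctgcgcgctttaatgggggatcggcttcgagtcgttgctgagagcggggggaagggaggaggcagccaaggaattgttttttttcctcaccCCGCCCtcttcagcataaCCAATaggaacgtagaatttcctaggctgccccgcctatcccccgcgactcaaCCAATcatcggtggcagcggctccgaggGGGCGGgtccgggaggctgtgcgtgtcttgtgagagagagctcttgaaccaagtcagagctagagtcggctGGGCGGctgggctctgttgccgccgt
Hdac6: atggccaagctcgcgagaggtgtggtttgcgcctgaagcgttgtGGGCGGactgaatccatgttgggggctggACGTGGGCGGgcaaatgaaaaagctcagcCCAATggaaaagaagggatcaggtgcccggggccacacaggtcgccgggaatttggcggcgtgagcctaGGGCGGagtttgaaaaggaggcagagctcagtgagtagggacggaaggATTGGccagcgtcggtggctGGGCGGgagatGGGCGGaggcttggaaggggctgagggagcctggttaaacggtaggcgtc
Kdm6a: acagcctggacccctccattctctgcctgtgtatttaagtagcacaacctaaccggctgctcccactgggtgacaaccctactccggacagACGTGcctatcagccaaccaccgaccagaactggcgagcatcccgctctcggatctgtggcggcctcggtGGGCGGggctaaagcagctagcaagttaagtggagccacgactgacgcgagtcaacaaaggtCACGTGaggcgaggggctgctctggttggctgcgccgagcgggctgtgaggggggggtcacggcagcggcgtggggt
Kdm7a: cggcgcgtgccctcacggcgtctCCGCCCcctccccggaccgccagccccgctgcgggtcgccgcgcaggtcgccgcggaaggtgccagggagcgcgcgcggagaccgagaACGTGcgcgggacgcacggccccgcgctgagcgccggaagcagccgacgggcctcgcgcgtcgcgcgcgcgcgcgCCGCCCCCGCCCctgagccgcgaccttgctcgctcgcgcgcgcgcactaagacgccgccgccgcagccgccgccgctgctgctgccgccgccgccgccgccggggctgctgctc
Hdac5: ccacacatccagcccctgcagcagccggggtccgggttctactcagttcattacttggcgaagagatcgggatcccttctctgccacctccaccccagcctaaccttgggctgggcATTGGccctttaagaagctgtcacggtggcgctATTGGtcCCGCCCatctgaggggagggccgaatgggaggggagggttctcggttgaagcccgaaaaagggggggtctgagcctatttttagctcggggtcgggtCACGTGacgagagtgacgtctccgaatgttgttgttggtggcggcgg
All 5 windows hold a GC box, which 40 of 67 windows of members (59.7%) and 35.7% of 32851 windows of all genes hold. A CCAAT box is in 43.3% of member windows and 37.4% of all windows, the hypoxia core in 20.9% and 19.6%, an E-box in 7.46% and 7.15%, and a TATA box (TATAAA) in 5.97% and 13.6%. The windows of members held a median of 21 CG dinucleotides against 7 in all windows, with 65 in that of Kdm7a. Windows were found for 50 of the 64 members.

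CD73+ and CD49d+ cells were also set against CD73- cells one by one. Both comparisons use the same CD73- arrays and are given side by side. In CD73+ cells 5 of 58 members passed, all higher: Kdm3a, Kdm6a, Kdm7a, Hdac6 and Kmt2e. Their share was 8.62%, near the 8.00% of all genes tested (5.06% higher and 2.94% lower). In CD49d+ cells 4 passed, all higher: Kdm3a, Kdm4b, Hdac5 and Hdac6. These were 6.9% of the members tested, below the 13.3% of all genes (7.69% higher and 5.66% lower). In 3 alternatives a lower member, Kmt5a (-0.30), also passed in CD49d+ cells, with an adjusted p of 0.0489 after averaging probe sets, 0.0203 with an intensity trend and robust prior and 0.0424 with no day term. At an unadjusted p under 0.05 there were 19 members in CD73+ cells (28.0% of all genes) and 12 in CD49d+ cells (30.9%). Kdm6a differed by 0.53 ± 0.0616 log2 units in CD73+ (adjusted p = 0.0175) and by 0.19 ± 0.0616 in CD49d+ cells (adjusted p = 0.105). Kdm7a stood at 0.84 ± 0.12 (adjusted p = 0.0264) and 0.41 ± 0.12 (adjusted p = 0.0873). Kdm4b was at 0.32 ± 0.0821 in CD73+ (adjusted p = 0.0797) and 0.65 ± 0.0821 in CD49d+ cells (adjusted p = 0.0155). Hdac5 was at 0.39 ± 0.134 (adjusted p = 0.141) and 0.79 ± 0.134 (adjusted p = 0.0272). For Kdm3a (0.41 and 0.43) and Hdac6 (0.84 and 0.91) the values of the populations were within 1 SE of each other, and both passed in each; with no day term Kdm3a passed in neither (adjusted p = 0.109 in CD73+ and 0.0799 in CD49d+). Without 1 array the count for CD73+ ran from 0 to 4 and that for CD49d+ from 0 to 4. For CD73+ it was 0 without any single CD73+, CD73- or unsorted array of either day, 3 without the CD49d+ array of day 6 and 4 without that of day 9. For CD49d+ it was 0 without any single array of day 6 or the CD73- array of day 9, 1 without the CD73+ or the unsorted array of day 9, and 4 without the CD49d+ array of day 9. In the fits that called 0 members, 0 to 2 of all genes passed for CD73+ and 1 to 274 for CD49d+.

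**Figure D3:**
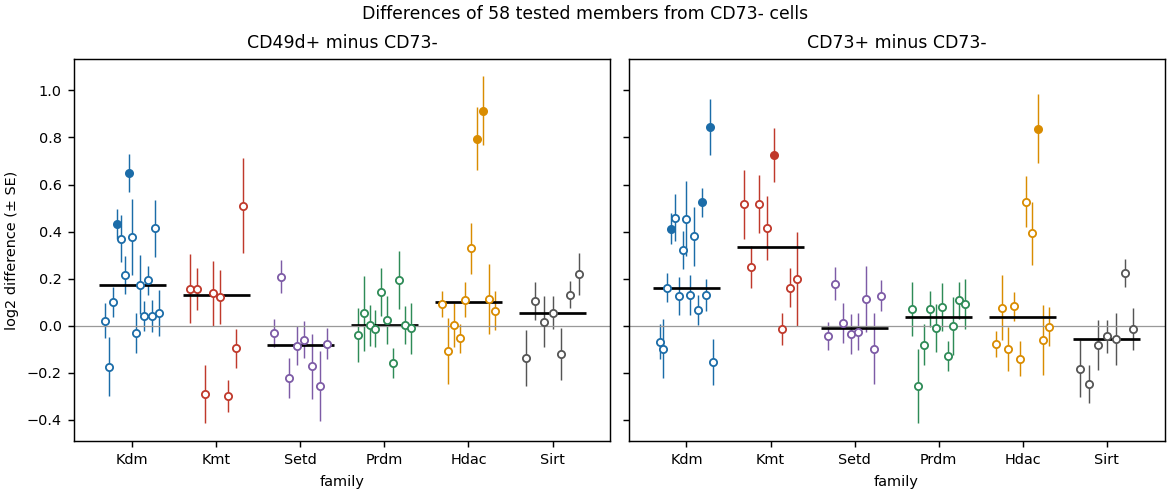
Log2 differences (± SE from the limma fit) of the 58 tested members from CD73- cells, by family, for CD49d+ cells (left) and CD73+ cells (right), which share the CD73- arrays. Filled points passed at an adjusted p under 0.05 and black lines are family medians, which for Kmt are 0.13 on the left and 0.33 on the right.

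The difference between the poised populations was tested directly. In CD49d+ minus CD73+ limma called 0 members, and 0.0300% of all genes tested (0.00751% higher and 0.0225% lower); 14 members had an unadjusted p under 0.05, against 24.1% of all genes. The lowest p was that of Kmt2c (-0.81 ± 0.122 log2 units, adjusted p = 0.061), followed by Kdm6a (-0.33 ± 0.0616, adjusted p = 0.0687) and Kmt2e (-0.60 ± 0.114, adjusted p = 0.0693). Each of these lay on the same side at both days. Quantile normalization brought 4 of 58 members past the threshold, with 6.11% of all genes, and centring each array on its median brought 2, with 4.73% of all genes.

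The Kmt2 genes encode the large methyltransferases of lysine 4 of histone H3, the mark of promoters and enhancers, and their relative Kmt2e. They were singled out after their values had been seen. Kmt2e, the member that passed in CD73+ cells, had 1753 and 1943 there, 1275 and 1161 in CD49d+, 1108 and 1126 in CD73- and 805 and 666 in unsorted cells, with 1252, 1261 and 898 in MEF, SC4 and ESC. CD73+ cells were above and unsorted cells below all 3 controls. The difference of CD73+ from CD73- cells was 0.72 ± 0.114 (1.65-fold, adjusted p = 0.0315).

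Kmt2a (Mll) had 1092 and 1218 in CD73+, 1012 and 801 in CD49d+, 787 and 827 in CD73- and 672 and 549 in unsorted cells, with 542, 809 and 783 in MEF, SC4 and ESC. Kmt2c, which acts at enhancers, had 659 and 611 in CD73+, 403 and 326 in CD49d+, 439 and 448 in CD73- and 355 and 265 in unsorted cells, with 350, 346 and 542 in the controls. For Kmt2c the CD49d+ arrays were thus below and the CD73+ arrays above the CD73- arrays. Kmt2b ranged from 554 to 833 and Kmt2d from 360 to 695 on the 8 arrays, each lowest in unsorted cells at day 9 and highest in CD73+ cells at day 9. None of these 4 passed against CD73- cells in CD73+ cells (adjusted p = 0.0979 for Kmt2a, 0.153 for Kmt2b, 0.0688 for Kmt2c and 0.134 for Kmt2d).

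In the deposited values CD73+ cells were the highest and unsorted cells the lowest of the 4 populations at both days for all 5 Kmt2 genes, for 11 of 58 members and for 5.17% of all genes tested. In a check chosen after seeing the data, the order held for 3 of the 5 (Kmt2a, Kmt2c and Kmt2e) with each array centred on its median and for the same 3 under quantile normalization. The other members with this order were Kdm5a, Kdm5b, Kdm6a, Setd5, Setd7 and Sirt6.

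**Figure D4:**
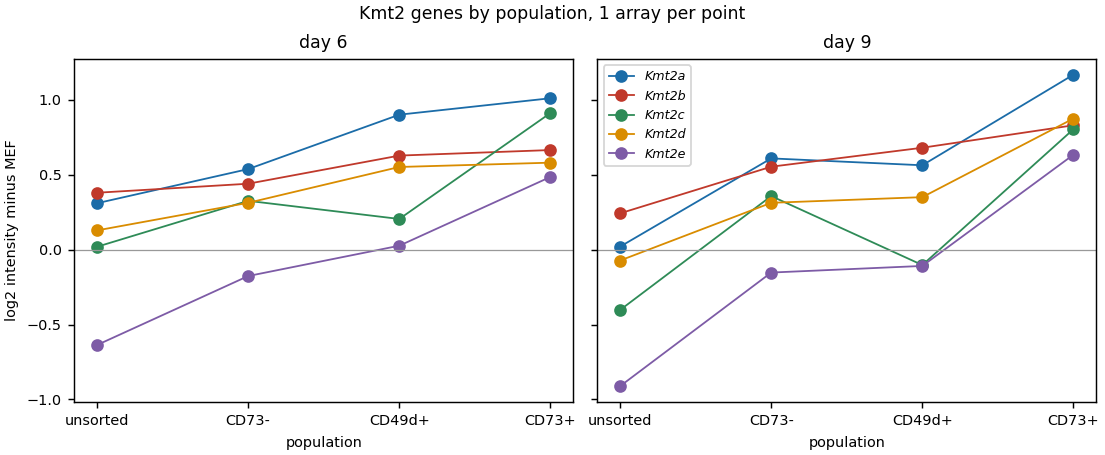
Log2 intensity of the 5 Kmt2 genes minus MEF in the 4 populations at day 6 and day 9, 1 array per point, with lines joining the points of a gene. At both days unsorted cells are lowest and CD73+ cells highest for each gene; Kmt2e, with an intensity of 1252 in MEF, runs from 666 in unsorted to 1943 in CD73+ cells at day 9.

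No member changed between the days at the adjusted threshold. For day 9 minus day 6 limma called 0 of 58 members and 0% of the 13313 genes, and 3 members had an unadjusted p under 0.05 against 11.6% of all genes. Kdm3a was higher at day 9 in each of the 4 populations, by 0.10, 0.18, 0.27 and 0.17 log2 units in CD49d+, CD73+, CD73- and unsorted cells (mean 0.18 ± 0.0462, adjusted p = 0.29). The others were Kmt5b (0.16 ± 0.0583, adjusted p = 0.402), a methyltransferase of histone H4, and Hdac11 (-0.18 ± 0.0659, adjusted p = 0.414), which lay near the floor.

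Against fibroblasts, 4 members stood at least 2-fold away from MEF in the same direction on all 8 reprogramming arrays (6.45% of the 62 members above the floor, against 10.7% of 14301 genes, 4.89% higher and 5.78% lower). MEF has a single array, so these differences carry no test. Setd6, a SET domain enzyme known to methylate a subunit of NF-kappaB, had 247 in MEF, 655 to 1041 on the reprogramming arrays, 716 in SC4 and 1173 in ESC. It was 2.66-fold to 4.22-fold above MEF and below ESC on each of the 8 arrays. Kmt5a, the enzyme that places a single methyl group on lysine 20 of histone H4 in dividing cells, had 1854 in MEF, 3941 to 5112 during reprogramming, 4177 in SC4 and 3425 in ESC. It was highest in CD73+ and CD73- cells (4761, 5112, 5081 and 4883) and lower in CD49d+ (3941 and 4163) and unsorted cells (4193 and 4148). CD49d+ minus CD73- was -0.30 ± 0.0679 for Kmt5a, just short of the threshold (adjusted p = 0.0501). The summed intensity of 12 S phase genes moved in the same way between MEF (8082.8) and the reprogramming arrays (24759 to 28849), and its part in the level of Kmt5a was not tested.

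The third gene above MEF throughout was Kdm7a, from 2.43-fold to 5.62-fold. Hdac7, a class II deacetylase of vascular and lymphoid cells, was the gene below: it had 1094 in MEF against 316 to 440 on the reprogramming arrays, 294 in SC4 and 428 in ESC. With each array centred on its median, which moved the median of all genes in reprogramming cells minus MEF from 0.01 to -0.11, Kmt5a fell out and 3 members stood beyond 2-fold. At 1.5-fold the count was 11 (17.7%, against 20.7% of all genes), with Kdm1b, Kdm5c, Prdm10, Prdm15, Hdac5, Hdac10 and Sirt2 added. Prdm10 had 227 in MEF, 397 to 603 on the reprogramming arrays, 452 in SC4 and 560 in ESC. All 8 arrays were above MEF for 26 of 62 members and below it for 11, against 30.1% and 30.2% of all genes. They were above for 10 of 16 Kdm, 4 of 8 Kmt, 4 of 8 Setd, 4 of 12 Prdm, 3 of 11 Hdac and 1 of 7 Sirt genes.

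Hdac10, a polyamine deacetylase, was the single member of 62 at least 1.5-fold outside both end points on all 8 arrays (1.61%, against 3.05% of all genes), with 267 to 400 against 170 in MEF, 135 in ESC and 224 in SC4. At 2-fold 0 of 62 members met this rule, against 1.01% of all genes (0.615% higher and 0.399% lower).

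Embryonic stem cells differed from fibroblasts at least 2-fold in 15 of 62 members, 12 higher and 3 lower (24.2%, against 23.9% of all genes, 12.0% higher and 11.9% lower). Of the Kdm genes 5 of 16 were higher and 0 lower, and of the sirtuins 2 of 7 were higher and 2 lower. Among these 15, the 8 reprogramming arrays had a mean within 1.06-fold of ESC for Prdm10, 1.15-fold for Hdac7, 1.16-fold for Sirt2, 1.32-fold for Kdm3b and 1.36-fold for Setd6. The other 10 lay 1.54-fold or more from ESC.

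Other members stood higher in ESC than on the other 10 arrays. Prdm14, a PR domain factor that guards the naive stem cell state, was at the floor on 10 arrays and had 292 in ESC, at least 2.92-fold higher. Sirt1, a nuclear NAD-dependent deacetylase, had 1385 in ESC against 319 in MEF, 443 to 562 on the reprogramming arrays and 565 in SC4. Kmt5c, which adds further methyl groups to lysine 20 of histone H4, had 1603 in ESC, 484 in MEF, 521 to 952 in reprogramming cells and 825 in SC4.

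Kdm4c, a lysine 9 demethylase known to be driven by the stem cell network, had 1701 in ESC, 581 in MEF and 774 in SC4. On the reprogramming arrays it ran from 523 to 834, with 708 and 834 in CD49d+, 827 and 796 in CD73+, 523 and 670 in CD73- and 632 and 526 in unsorted cells. The poised arrays were above the other 4, but the difference did not pass (0.42 ± 0.14, adjusted p = 0.12). Kdm5b, a lysine 4 demethylase, had 2184 in ESC, 1072 in MEF, 983 in SC4 and 663 to 1363 in reprogramming cells, highest in CD73+ (1280 and 1363) and lowest in unsorted cells (803 and 663). It was below ESC on each of the 8 arrays, and its 2.04-fold difference of ESC from MEF, like that of Kdm7a (2.01-fold), fell under 2-fold with centring and with quantile normalization. The mitochondrial sirtuin Sirt3 had 473 in ESC against 198 to 275 on the other arrays.

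Lower in ESC than in MEF were Hdac7 (2.56-fold), Sirt2 (2.20-fold) and Sirt7 (2.03-fold). Sirt2, a cytoplasmic deacetylase, had 3044 in MEF, 1805 and 1553 in CD49d+, 1412 and 1221 in CD73+, 1547 and 1570 in CD73- and 1991 and 1839 in unsorted cells, with 1522 in SC4 and 1381 in ESC. Every reprogramming array was below MEF, and unsorted cells were nearest to it at both days. Sirt7, a nucleolar sirtuin, had 181 in ESC and 320 to 395 on the other 10 arrays.

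**Figure D5:**
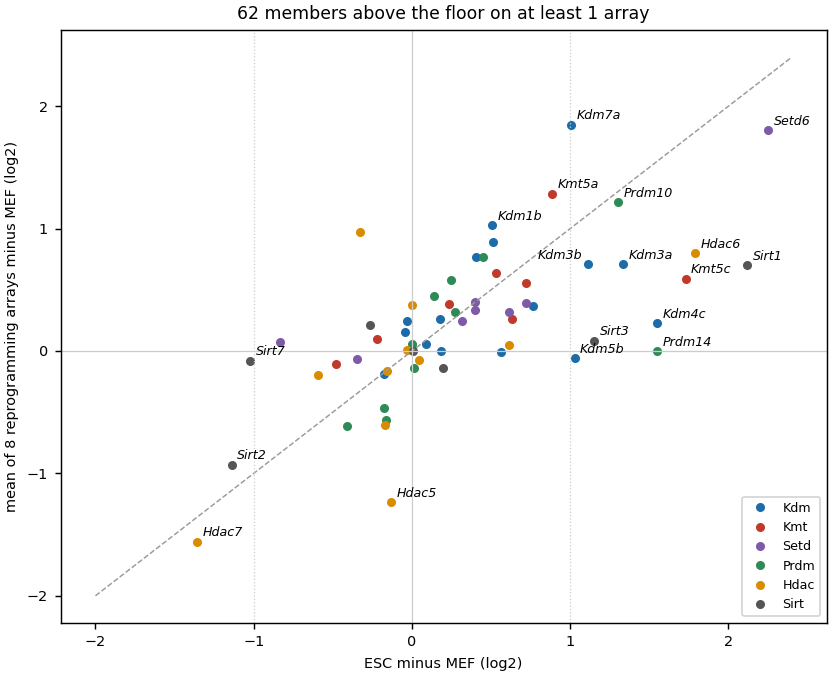
Mean log2 intensity of the 8 reprogramming arrays minus MEF against ESC minus MEF for the 62 members above the floor on at least 1 array, coloured by family; on the dashed line both differences are equal, and dotted vertical lines mark 2-fold between ESC and MEF. Setd6, Prdm10, Hdac7 and Sirt2 lie near the line, Sirt1 (2.12 in ESC, 0.70 in reprogramming cells) and Kmt5c far below it and Kdm7a (1.01 and 1.85) above it.

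SC4 differed from MEF at least 2-fold in 6 members (9.68%, against 22.4% of all genes): Kdm3b, Kdm7a, Kmt5a, Setd6 and Hdac6 were higher and Hdac7 lower. Of these, Kdm7a (4.95-fold) and Hdac6 (3.94-fold) were also the members with the largest differences between poised and CD73- cells. Hdac2, a core class I deacetylase, had 3317 in SC4, 1768 in MEF, 1772 in ESC and 2144 to 2479 in reprogramming cells.

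Kdm1a, Hdac3 and Prdm4 varied less than 1.32-fold, the median of the members, on the reprogramming arrays. Kdm1a (Lsd1), a flavin demethylase of lysine 4, had 2032 to 2337 on the reprogramming arrays, 1707 in MEF, 2314 in SC4 and 2901 in ESC, and its poised minus CD73- difference did not pass. Hdac3, the catalytic subunit of the NCoR and SMRT complexes, had 2773 to 3628 on all 11 arrays, a range of 1.31-fold. Prdm4 had 999 to 1184 in reprogramming cells, 796 in MEF, 1062 in SC4 and 878 in ESC. Setd5 had a wider range, 2.07-fold, and was 1 of 8 members at 2-fold or more on these arrays. The 8 are 15.1% of the 53 members measured throughout, against 12% of the 10541 genes measured throughout. Setd5 had 950 to 1967, lowest in unsorted cells at day 9, with 1165 in MEF, 1258 in SC4 and 1916 in ESC.

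Genes that work with these enzymes were taken from 5 lists of partner genes, of which 93 of 105 symbols were matched and 90 tested. The counts below stand beside 7.16% of all genes tested that rose and 4.85% that fell. Among 23 other histone methyltransferases 1 rose in poised over CD73- cells and 0 fell. It was Ezh1, a Polycomb methyltransferase of lysine 27 (0.87 ± 0.0555, adjusted p = 0.00473). Its intensity was 681.7 and 737 in CD49d+, 590.6 and 681.1 in CD73+, 357.9 and 377 in CD73- and 483.6 and 506.7 in unsorted cells, with 377.7 in MEF, 720.2 in SC4 and 1123 in ESC. Of 10 other jumonji genes 2 rose and 1 fell, the Polycomb partner Jarid2 (0.45 ± 0.079, adjusted p = 0.0299) and Jmjd8 (0.35) being higher and Jmjd4 (-0.29) lower. Of 18 acetyltransferases 1 rose, Clock (0.40), and 2 fell, the coactivator Ncoa3 (-0.49, adjusted p = 0.0258) and Gtf3c4 (-0.32). Of 12 partners of the Kmt2 and Setd1 enzymes 0 rose and 1 fell, the Setd1 complex subunit Wdr82 (-0.28). Among 27 subunits of deacetylase complexes 1 rose and 0 fell, the NuRD subunit Mta3 (0.82 ± 0.0811, adjusted p = 0.0085). List medians ran from -0.08 to 0.13, beside -0.0102 for all genes tested and 0.04 for the members.

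Markers of other cell types were read on the same arrays. Of all genes tested 7.16% rose and 4.85% fell in poised against CD73- cells. Of 6 endothelial markers tested 3 rose in poised cells, and the summed intensity of the 7 listed was 1868.2 to 2408 in poised against 1068.6 and 1334.7 in CD73- cells. Tek carried most of it, at 1055 to 1673 against 459.1 and 633.5, while Tie1 was at the floor on all arrays and Kdr reached 101.4. Of 7 macrophage and blood markers 3 were tested and Laptm5 rose; their sum was 1272.2 to 1394 in poised against 1154.1 and 1285.7 in CD73- cells, and Ptprc, Csf1r and Adgre1 were at the floor on all 11 arrays. Of 6 neural markers 1 rose, Stmn2, with a sum of 9122.6 to 10568 against 5269.3 and 7475.1, and of 11 fibroblast markers 1 rose and 2 fell. Of 5 keratinocyte and 3 muscle markers tested 0 passed. The part of the endothelial, neural and fibroblast markers in the differences of the members was not tested.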

How the data were processed

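Gene expression was measured in 11 samples, 1 array each, and the deposited values are linear intensities of 41345 probe sets with a floor of 100. The submitters' processing notes name Partek and give no version. How probes were summarised and arrays scaled is not stated there or in the labels, so small differences between arrays may come from that processing. No scaling was added, and log2 of the deposited intensity was taken. Probe sets were named from GEO's platform annotation, with symbols updated through a RefSeq gene table of GRCm38.p6: 23521 had 1 symbol, 1814 several and 16010 none. A total of 22180 genes were represented by their probe set of highest mean, 14301 were above the floor on at least 1 array, and 13313 on at least 1 reprogramming array were tested.

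The 8 reprogramming arrays were fitted with limma 3.58.1 (R 4.3.3; lmFit and eBayes) on population and day, with 3 residual degrees of freedom, and p-values were adjusted by Benjamini-Hochberg over all genes tested; ± marks the SE of a log2 difference. The number of arrays limits the precision, and nothing in the labels says that the days came from separate cultures. Differences from MEF, SC4 or ESC rest on single arrays and carry no test. Values are printed for members that passed a comparison (9), had 1 of the 15 widest ranges, stood 2-fold from MEF on all 8 reprogramming arrays (4) or had the highest mean of their family (6), which is 24 genes; others are given as counts, and any further member named was chosen after its values were seen. The highest mean only picked which members to print, and says nothing of which enzyme has more transcript. The members, lists, tests and alternatives were chosen with earlier results of these data known. Alternatives were centring each array, quantile normalization, averaging probe sets, other filters on dim probe sets, another eBayes prior, fits without the unsorted arrays or the day term, other fold thresholds and leaving out each array. Probe sets with several symbols were not used.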

Additional observations from a re-analysis of the deposited data

Results flagged for a closer look

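Kmt2c differed in direction between the poised populations at both days: CD73+ cells were above and CD49d+ cells below CD73- cells, and CD49d+ minus CD73+ was -0.81 log2 units (limma, adjusted p = 0.061). Prdm9, a germ cell methyltransferase whose intensities lay near the floor, was higher in both poised populations than in CD73- cells at day 6 (mean 0.13 log2 units) and lower at day 9 (-0.05), a change of -0.18 that was not tested. A probe set listed for Kdm2b together with a predicted gene, which was not used above, had 242.3 in MEF and 249.3 to 301.7 on the reprogramming arrays, at least 1.03-fold higher on each of the 8.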

How the results depend on the processing

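Without a filter on dim probe sets 5 members passed in poised and 2 in CD73+ cells against CD73-, and on the 6 sorted arrays 5 and 3. Centring each array and quantile normalization gave 8 and 8 for CD73+ minus CD73-. For CD49d+ minus CD73+, where 0 passed as deposited, centring gave 2, quantile normalization 4, a highest array of 2 times the floor or more 1, and an intensity trend with robust prior 2. Leaving out 1 array gave 0 to 5 members for poised, 0 to 4 for CD73+ and 0 to 4 for CD49d+ minus CD73-, and 0 for CD49d+ minus CD73+ and day 9 minus day 6. The 17 differences that passed in named genes kept their sign in all 16 alternatives each. This says little, because all 4 poised arrays lay above both CD73- arrays for each of these genes. Hdac6 in poised cells stayed past the threshold in 11 of 16, Hdac4 in 6 and Kdm3b in 5. With a 1.5-fold threshold the counts against MEF were 24 for ESC (38.7%, against 41.2% of all genes), 17 for SC4 (27.4% against 38.5%), 11 for all 8 reprogramming arrays (17.7% against 20.7%), and 1 outside both MEF and ESC (1.61% against 3.05%). Centring lowered the share of higher genes among all that passed in poised cells from 59.6% to 50.5% and in CD73+ cells from 63.2% to 52.3%, with quantile normalization at 50.9% for the latter, while the members that passed were higher in each case. The fit matches the populations by day; with no day term 6, 4, 4 and 0 members passed for poised, CD73+ and CD49d+ minus CD73- and for CD49d+ minus CD73+. No paired analysis was possible because the labels give no replicate numbers, so day is the only matching. Signal near the floor limits Prdm genes most.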
